A study of Caenorhabditis elegans with 4 samples.

Results

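The genes described here act in the amplification of small RNAs in *C. elegans*. They are Dicer (*dcr-1*), the RNA-dependent RNA polymerase genes *ego-1*, *rrf-1* and *rrf-3*, the polymerase partners *drh-3* and *ekl-1*, and the mutator genes *mut-2*, *mut-7*, *mut-14* and *mut-16*. The 10 genes were chosen by name and role from the 15286 genes of the deposited table, and each matched a single row. All 10 were among the 15261 genes with at least 1 count over the libraries, the only filter used. Polyadenylated RNA was sequenced from gonads dissected from adult worms, with 2 libraries from wild type (N2, the Bristol strain) and 2 from the H3.3K27M mutant, genotype *his-72(uge40[K27M])* III. All worms were grown at 25 °C and no agent was given. The mutant carries the lysine-to-methionine substitution at the endogenous *his-72* locus, which encodes 1 of the worm's H3.3 proteins, and the other H3.3 genes were not edited. The strain label of the mutant libraries reads FAS58 while their titles read FAS43, and the extraction text of the labels describes embryos and larvae, so the genotype label and the methods were followed. How many animals went into a library is not given in the sources used here.

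In *C. elegans*, a small amount of primary small RNA is turned into a much larger pool of secondary small RNAs. Dicer cuts double-stranded RNA, an Argonaute protein carries the product to a target transcript, and an RNA-dependent RNA polymerase then copies that transcript into short antisense RNAs. Much of this takes place in germ cells beside the nucleus, in mutator foci and P granules, and the secondary small RNAs are known there for silencing transposons, for guarding expressed genes, and for passing silencing to the next generation. The mutator genes owe their name to transposons, which move in the germline when these genes are lost.

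Total counts on genes were 31865876 and 29331804 in wild-type replicates 1 and 2, and 32957429 and 28298609 in mutant replicates 1 and 2. Levels are given as CPM, counts scaled to a common library size after TMM normalization, so that libraries of different depth can be compared. *his-72* was at 64.2 and 81.8 CPM in wild type and 50.3 and 60.4 CPM in the mutant. A point mutation does not show in a count per gene, so this does not check the genotype. The tissue label was checked with marker genes. The 14 germline markers together held between 6493 and 8240 CPM in every library and the 10 oocyte markers between 17170 and 29161 CPM, and none of the 24 was at 0 in any library or passed the test. The 12 intestine markers summed to 320 and 3196 CPM in wild type and to 14.1 and 20.7 CPM in the mutant, with 5 of them called lower, and 1 was at 0 in a library. Against this sum, 2 of the 12 had log2 fold changes above 0, up to 2.54. The 7 measured neuron markers summed to 56.7 and 63.9 CPM in wild type and to 87.2 and 86.6 CPM in the mutant, with 2 called higher, and 1 was at 0 in a library. Of these 7, 5 had log2 fold changes above 0, and the lowest was -1.34. Sums lay between 1088 and 1286 CPM for somatic gonad markers (1 called lower, 1 at 0 in a library) and 705 and 1321 CPM for body wall muscle. They lay between 118 and 192 CPM for hypodermis (2 of 6 measured markers at 0 in a library) and 3.83 and 9.79 CPM for sperm (6 of 11). The median log2 fold change of the sperm markers was -1.53, although their sum was higher in both mutant libraries, and 0 of them were called. The part of these tissues in the results below was not tested. In bulk tissue, fewer cells of a type and less RNA per cell cannot be told apart.

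The small RNA amplification genes were abundant in gonads of both strains, and none passed the test for a difference. Of the 10 genes, 0 were called higher and 0 lower in the mutant, against 4.43% of all genes tested called higher and 1.46% called lower, or 5.89% in either direction (quasi-likelihood test of edgeR, a call being a Benjamini-Hochberg adjusted p under 0.05 together with more than 2-fold change). The count was also 0 of 10 by the adjusted p without a fold limit, against 5.96% of all genes, and at an unadjusted p under 0.05, against 24.7%, and DESeq2 and edgeR's classic exact test likewise called 0. The adjusted p-values of the genes lay between 0.353 and 0.877. Their median log2 fold change was 0.16, beside a median of -0.11 over all genes tested. In 9 of the 10 genes the fold change was above 0, as in 44% of all genes, and *rrf-3* was the exception. For these 9 genes the fold change lay between 1.05 and 1.19, with the lower ends of the 95% intervals between 0.719 and 0.898 and the upper ends between 1.52 and 1.64. Neither a 2-fold rise nor a 2-fold fall lay within the interval for 9 of the 10 genes, as for 27% of all genes, whereas the interval of *rrf-3* included a 2-fold fall but not a 2-fold rise.

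**Figure D1:**
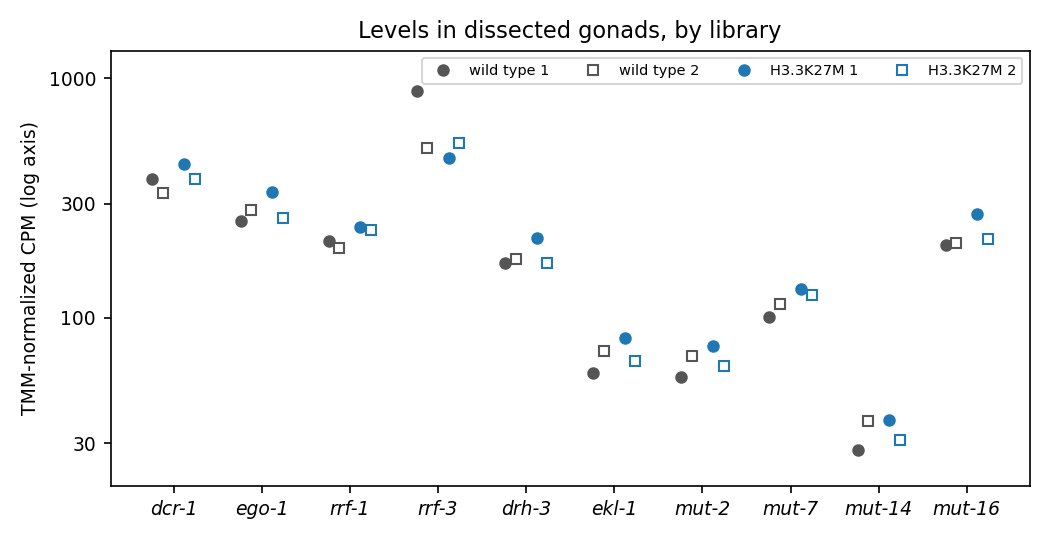
Level of each of the 10 small RNA amplification genes in TMM-normalized CPM (log axis) in each of the 4 libraries, with wild type in grey, the H3.3K27M mutant in blue, filled circles for replicate 1 and open squares for replicate 2. The libraries of the 2 strains overlap for 7 of the 10 genes, and wild-type replicate 1 stands apart for *rrf-3*, at 881 CPM.

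*dcr-1* (chromosome III, minus strand, 8071967 to 8080281 in WBcel235, as all positions here) encodes Dicer, the ribonuclease that makes both small interfering RNAs and microRNAs. Its level was 380 and 332 CPM in wild type and 438 and 379 CPM in the mutant. The lower mutant library lay just below the higher wild-type library, so the strains overlapped. The log2 fold change was 0.20 with a standard error (SE) of 0.19 (adjusted p = 0.538 from the same quasi-likelihood test).

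*ego-1* and *rrf-1* encode polymerases that make secondary small RNAs from target transcripts. *ego-1* is needed for germline development, whereas *rrf-1* is best known for its role in the soma and overlaps with *ego-1* in the germline. The genes are neighbours on the minus strand of chromosome I, with *rrf-1* from 7643431 to 7649777 and *ego-1* from 7650341 to 7656338, and 563 bases separate them. *ego-1* was at 254 and 282 CPM in wild type and at 335 and 262 CPM in the mutant. The mutant replicates thus lay above and within the wild-type range. *rrf-1* was at 209 and 196 CPM in wild type and at 240 and 233 CPM in the mutant. Both mutant libraries lay above both wild-type libraries, as they did for *mut-7* and *mut-16* below, 3 of the 10 genes, and for 24.1% of all genes tested. Both lay below in 0 of the 10 genes and in 32.7% of all genes. The log2 fold changes were 0.15 (SE 0.20, adjusted p = 0.655) for *ego-1* and 0.22 (SE 0.17, adjusted p = 0.442) for *rrf-1*. Within a library, *ego-1* had 1.22 and 1.44 counts per count of *rrf-1* in wild-type gonads and 1.40 and 1.13 in the mutant, and these ratios, which depend on no scaling between libraries, overlapped.

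*rrf-3* encodes the polymerase that works together with Dicer to make a class of primary small interfering RNAs. It lies on the plus strand of chromosome II, from 8162465 to 8168651. Its level was 881 and 510 CPM in wild type and 465 and 537 CPM in the mutant. A single library, wild-type replicate 1, stood high, and wild-type replicate 2 lay between the mutant libraries. *rrf-3* had the widest spread of the 10 genes, with a 1.73-fold difference between the wild-type replicates. The other genes had ratios of replicate 1 to replicate 2 between 0.757 and 1.14. Outside the 10, some small RNA genes examined below also stood higher in wild-type replicate 1, and others stood lower. The log2 fold change of *rrf-3* was -0.47 with a standard error of 0.29 (adjusted p = 0.353), and its 95% interval reached from 0.443-fold to 1.17-fold. Without wild-type replicate 1 it was 0.013 (adjusted p = 0.984), and without wild-type replicate 2 it was -0.81 (unadjusted p = 0.0282, adjusted p = 0.410).

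The high level of *rrf-3* in wild-type replicate 1 was also present relative to *ego-1* and *rrf-1* in that library. The scarcer polymerase gene *rrf-2*, described below, also stood higher there, at 14.9 CPM against 10.1 CPM in wild-type replicate 2. Of the counts of *ego-1*, *rrf-1* and *rrf-3* together, *rrf-3* made up 65.5% and 51.6% in wild-type gonads and 44.7% and 52.1% in the mutant. *rrf-3* had 3.46 and 1.80 counts per count of *ego-1* in wild-type gonads and 1.39 and 2.05 in the mutant. A ratio above that of wild-type replicate 2 was thus seen in wild-type replicate 1 and in mutant replicate 2.

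The partners *drh-3*, a Dicer-related helicase, and *ekl-1*, a Tudor domain protein, work together with EGO-1 and RRF-1. *drh-3* (chromosome I, plus strand, 7820831 to 7826378) was at 169 and 177 CPM in wild type and at 216 and 169 CPM in the mutant. *ekl-1* (chromosome I, plus strand, 7095486 to 7098400) was at 59.0 and 73.0 CPM in wild type and at 82.3 and 66.3 CPM in the mutant. For both partners mutant replicate 1 was the highest library, and mutant replicate 2 lay within or just below the wild-type range. The log2 fold changes were 0.15 (SE 0.19, adjusted p = 0.643) for *drh-3* and 0.17 (SE 0.20, adjusted p = 0.626) for *ekl-1*. *drh-3* had 2.86 and 2.42 counts per count of *ekl-1* in wild-type gonads, and 2.62 and 2.54 in the mutant, so the mutant ratios lay within the wild-type range.

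The mutator genes encode proteins of different kinds. *mut-16* encodes the glutamine- and asparagine-rich scaffold on which mutator foci form, *mut-7* a protein with an exonuclease domain, *mut-2* (also called *rde-3*) a nucleotidyltransferase that adds tails to polymerase templates, and *mut-14* a DEAD-box RNA helicase. *mut-16* (chromosome I, plus strand, 10080159 to 10085765) was at 202 and 206 CPM in wild type and at 272 and 213 CPM in the mutant. *mut-7* (chromosome III, minus strand, 9539031 to 9542380) was at 101 and 114 CPM in wild type and at 132 and 125 CPM in the mutant. In both genes the mutant libraries lay above the wild-type libraries, although for *mut-16* mutant replicate 2 did so narrowly. Their log2 fold changes, 0.25 (SE 0.19, adjusted p = 0.451) for *mut-16* and 0.26 (SE 0.17, adjusted p = 0.386) for *mut-7*, did not pass the test. *mut-2* (chromosome I, minus strand, 6356614 to 6358411) was at 57.0 and 69.6 CPM in wild type and at 76.5 and 62.8 CPM in the mutant. *mut-14* (chromosome V, minus strand, 5658713 to 5660704) was at 28.2 and 37.3 CPM in wild type and at 37.4 and 30.98 CPM in the mutant. Both genes overlapped between the strains, with log2 fold changes of 0.14 (SE 0.20, adjusted p = 0.691) and 0.06 (SE 0.22, adjusted p = 0.877).

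**Figure D2:**
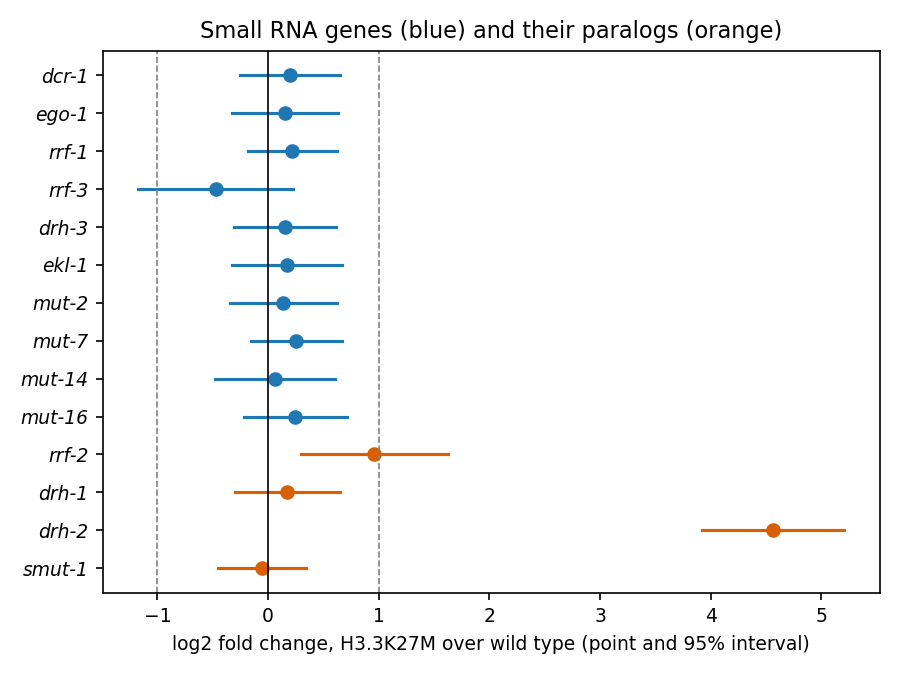
Log2 fold change of the mutant over wild type for the 10 genes (blue) and their 4 paralogs (orange), as points with 95% intervals from edgeR's quasi-likelihood fit; dashed lines mark 2-fold. The intervals of the 10 genes all include 0, and that of *drh-2*, centred at 4.57, lies far to the right.

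Several of the 10 genes shared a pattern between replicates. In 9 of 10, all but *rrf-3*, mutant replicate 1 was above mutant replicate 2, by at most 1.28-fold, and in 7 of 10, wild-type replicate 1 was below wild-type replicate 2. The largest fold between the strain means of the same 9 genes was 1.19. When libraries were left out one at a time, the log2 fold changes of the genes other than *rrf-3* and *mut-14* stayed between 0.02 and 0.41. *mut-14* ran from -0.092 to 0.28, its sign resting on wild-type replicate 1 and on mutant replicate 1.

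**Figure D3:**
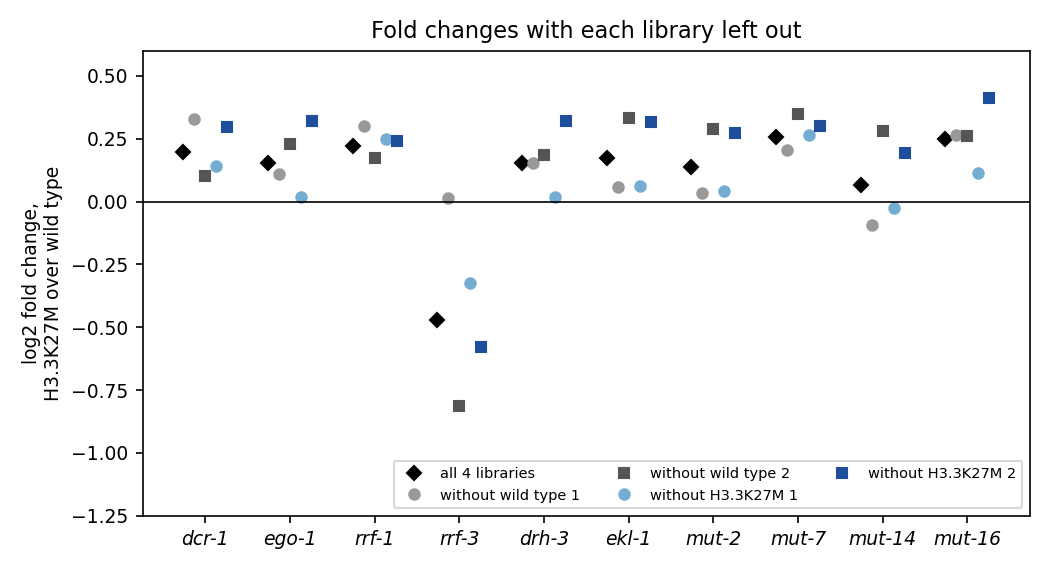
Log2 fold change of the mutant over wild type for each of the 10 genes with all 4 libraries (black diamonds) and with each library left out. *rrf-3* moves from -0.81 without wild-type replicate 2 to 0.013 without wild-type replicate 1, and *mut-14* lies on both sides of 0.

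Levels of different genes were compared per length, as CPM per kilobase of annotated exons. *rrf-3* was the most abundant of the 10 transcripts in each of the 4 libraries, at 126 CPM per kilobase in wild type and 90.6 in the mutant (means of 2 libraries). *dcr-1*, at 60.6 and 69.4, and *mut-16*, at 59.8 and 71.0 CPM per kilobase, followed and exchanged places between libraries. *ego-1*, at 50.7 and 56.4, and *drh-3*, at 49.3 and 54.8, did so too and could not be ordered. *rrf-1*, *mut-2* and *mut-7* lay between 36.0 and 40.6 CPM per kilobase in wild type and between 43.1 and 47.0 in the mutant, with overlapping libraries. *ekl-1* ranked 9 and *mut-14* ranked 10 in each library, at 30.8 and 18.7 CPM per kilobase in wild type. Among the 15134 genes with an annotated length, the 10 genes stood above between 71.0% (*mut-14*) and 94.7% (*rrf-3*) of genes in wild type, and above between 71.9% and 92.9% in the mutant.

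Among the 4 closest relatives of the 10 genes, *drh-2* alone was called, where 4.43% of all genes tested were called higher. The relatives are *drh-1* and *drh-2* for *drh-3*, *rrf-2* for the polymerases, and *smut-1* for *mut-14*. *drh-2* (chromosome IV, minus strand, 6613918 to 6618498), which the Ensembl annotation lists as a pseudogene, rose from 139 and 107 counts in wild type to 3734 and 2749 in the mutant. This corresponds to 4.74 and 3.73 CPM in wild type and 114 and 86.6 CPM in the mutant. The strains lay far apart, with a log2 fold change of 4.57 (SE 0.27), or 23.7-fold with a 95% interval from 15.2-fold to 37.0-fold (adjusted p = 0.00154). *drh-2* was called in all 7 planned fits of the 4 libraries, the main one included, and in the crossed pairing added later. Without wild-type replicate 2 or without mutant replicate 1 the log2 fold change was 4.40, and the call was lost (adjusted p = 0.0950 and 0.140), in fits that called 0 genes in all.

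*drh-1*, a helicase gene known for antiviral RNA interference, is separated from *drh-2* by 564 bases on the same strand (chromosome IV, 6607376 to 6613353). It was at 89.6 and 107 CPM in wild type and at 122 and 99.4 CPM in the mutant, so the strains overlapped. Its log2 fold change of 0.17 (SE 0.20, adjusted p = 0.606) was close to that of *drh-3*. *drh-2* had 0.0529 and 0.0349 counts per count of *drh-1* in wild-type gonads and 0.936 and 0.870 in the mutant. The separation of reads between such close copies depends on the counting, and their separate levels are uncertain to that extent.

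*rrf-2* (chromosome I, minus strand, 12098664 to 12106112), a further polymerase gene, was much scarcer than the other 3, at 2.57 CPM per kilobase in wild type and 5.01 in the mutant. It was at 14.9 and 10.1 CPM in wild type and at 21.3 and 27.4 CPM in the mutant, without overlap. Its log2 fold change of 0.96 (SE 0.27, unadjusted p = 0.0120) did not pass the test (adjusted p = 0.110). DESeq2 alone of the fits put *rrf-2* under 0.05 (adjusted p = 0.0275), at a log2 fold change of 0.99, short of the 2-fold limit. *smut-1* (chromosome V, plus strand, 6097105 to 6099083) overlaps in function with *mut-14* in the germline. It was at 97.2 and 100.4 CPM in wild type and at 93.1 and 96.9 CPM in the mutant, which gave a log2 fold change of -0.06 (SE 0.16, adjusted p = 0.854). Ratios within the helicase pair overlapped between the strains, with 0.290 and 0.371 counts of *mut-14* per count of *smut-1* in wild-type gonads and 0.402 and 0.320 in the mutant.

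Annotated genes on the opposite strand share exonic bases with 2 of the 10 genes. *mut-2* shares 67 exonic bases, or 4.30% of its own, with *bli-4*, which had up to 8963 counts in a library, and *rrf-3* shares 37 bases, or 0.669%, with T05C12.11, which had at most 152 counts. *smut-1* shares 92 bases, or 5.24%, with *crt-1*. The strand setting of the counting is not given in the sources used here, so reads from these stretches cannot be told apart.

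The wider small RNA pathways were examined through 7 lists of companion genes, the 4 paralogs included. Of the 66 companion genes, 1 (*drh-2*) was called higher and 0 lower, their median log2 fold change was -0.01, and 13 had an unadjusted p under 0.05. Among all genes tested, 4.43% were called higher, 1.46% were called lower and 24.7% had an unadjusted p under 0.05. With so few companion genes called, no difference is read from these shares, and none was tested. In each list the largest rise and the largest fall among genes whose higher strain mean reached 10 CPM are named, and scarcer genes went further in some lists without being called. Other mutator and amplification genes (11 genes, 0 called) had a median of 0.01 and, for all 11, an interval within 2-fold. Their extremes were *rsd-2*, which takes part in the response to double-stranded RNA, at 0.31 (adjusted p = 0.303), and *rde-12*, a helicase gene, at -0.53 (adjusted p = 0.162). Genes of Dicer-bound proteins and of the primary pathway that uses RRF-3 (11 genes, 0 called) had a median of 0.04. Here the Argonaute gene *ergo-1* was at 0.29 (adjusted p = 0.398) and *eri-5*, whose Tudor domain product binds RRF-3 to Dicer, at -0.22 (adjusted p = 0.485). The microRNA genes (7 genes, 0 called) had the same median of 0.04, with the Argonaute gene *alg-2* at 0.55 (adjusted p = 0.125) and *ain-1*, whose product works with microRNA Argonautes, at -0.62 (adjusted p = 0.162). For *alg-2*, DESeq2 alone of the fits gave an adjusted p under 0.05 (0.0273), at less than 2-fold.

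Downstream of the 10 genes, the Argonautes and nuclear RNA interference genes that use secondary small RNAs (14 genes, 0 called) had a median log2 fold change of -0.17. *nrde-1*, a chromatin-associated factor, was at 0.49 (adjusted p = 0.202). *nrde-3*, a nuclear Argonaute gene, was at 26.6 and 39.8 CPM in wild type and at 16.05 and 13.9 CPM in the mutant, which gave a log2 fold change of -1.15 (SE 0.26). It narrowly missed the threshold (adjusted p = 0.0598), passing it with DESeq2 (adjusted p = 0.00381), with edgeR's classic exact test (0.0196) and with a filter on low counts (0.0478), but not with RLE normalization (0.0705), the legacy quasi-likelihood method (0.0510) or the replicate block (0.131). With single libraries left out its log2 fold change ran from -1.37 to -0.83 (adjusted p from 0.183 to 0.442). Genes for piRNAs (12 genes, 0 called) had a median of -0.11, with *parn-1*, which trims piRNA ends, at 0.68 (adjusted p = 0.156) and *tofu-2* at -0.91 (adjusted p = 0.131). For *tofu-2* the adjusted p was 0.0233 with DESeq2 and 0.0385 with the classic exact test, both at less than 2-fold. Its other fits gave values above 0.05. Genes of the response to external double-stranded RNA (7 genes, 0 called) had a median of -0.63, with the Argonaute gene *rde-1* at 0.34 (adjusted p = 0.283) and *sid-3*, a kinase gene of RNA import, at -1.02 (adjusted p = 0.0760, from 0.0116 to 0.459 over the other fits, of which the classic exact test alone called it).

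Chromosome separated part of these lists. The 6 companion genes on chromosome X, *nrde-3*, *alg-1*, *ain-1*, *sid-3*, *sid-5* and *rsd-3*, all had log2 fold changes below 0, from -1.15 to -0.53, with a median of -0.70 and 0 calls (3 at an unadjusted p under 0.05). The 60 companion genes on other chromosomes had a median of 0.03, with 28 below 0. Over all genes tested the median was -1.06 on chromosome X and between -0.37 and 0.02 on the other chromosomes. Of the 1979 genes tested on chromosome X, 136 were called lower and 50 higher. None of the 10 small RNA amplification genes lies on chromosome X. Chromosome I holds 6 of them, chromosome III 2, and chromosomes II and V 1 each.

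**Figure D4:**
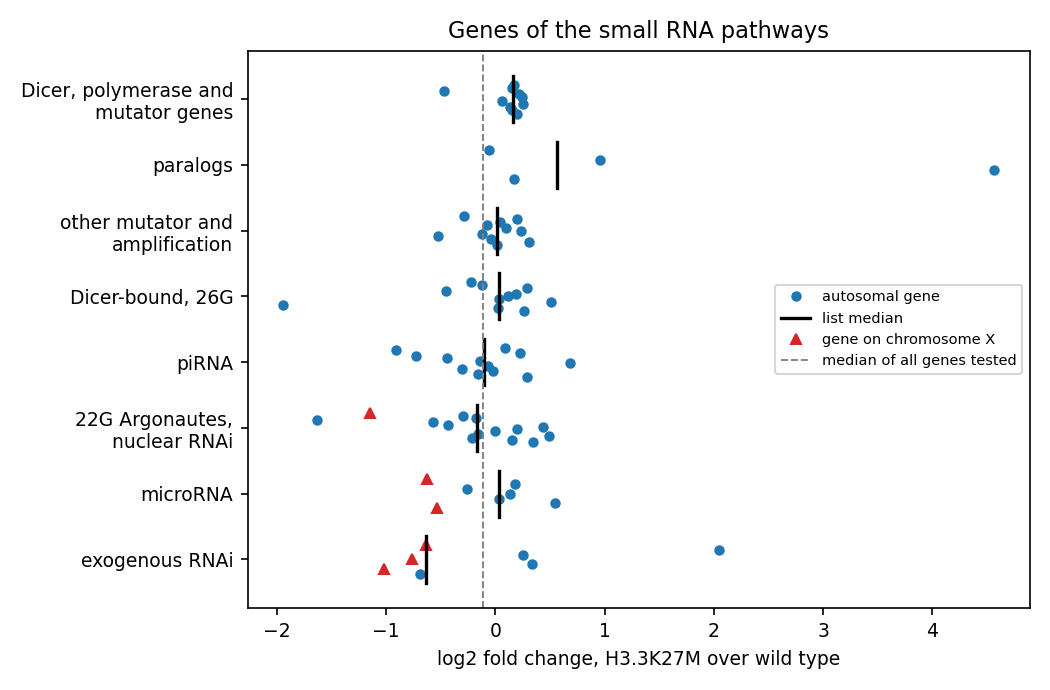
Log2 fold change of the mutant over wild type for the 10 genes and for each list of companion genes, with list medians as black bars, genes on chromosome X as red triangles, and the median of all genes tested, -0.11, as a dashed line. The 10 genes lie close together apart from *rrf-3*, the 6 genes on chromosome X lie left of 0, and *drh-2* lies at 4.57.

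The genes beside the 10 were examined as well, a comparison chosen after the values were seen. Of the 72 different tested genes within 4 places of any of them on either side, 7 were called higher, or 9.72%, and 0 lower, with a median log2 fold change of -0.04. Over all genes tested 4.43% were called higher and 1.46% lower, and the share called higher was 5.71% on chromosome I, 3.91% on II, 6.66% on III and 1.91% on V, the chromosomes that hold the 10 genes. No test of this difference was run. The called neighbours lay beside 5 of the 10 genes. Next to *mut-16*, B0379.1 (chromosome I, 10074994 to 10077749) rose from 40 and 41 counts in wild type to 205 and 312 in the mutant, which gave a log2 fold change of 2.52 (adjusted p = 0.0262). Beyond *ego-1*, F26A3.5 (chromosome I, 7667729 to 7669900) rose from 3 and 10 counts to 393 and 484, which gave a log2 fold change of 5.90 (adjusted p = 0.00313). The same stretch holds *del-3* at 2.88 (adjusted p = 0.0475) and, on the other side of *rrf-1*, *lrp-1* at 1.68 (adjusted p = 0.0297). The polymerase genes between them were at 0.15 and 0.22. Further called neighbours were K04F10.1 near *mut-2*, at 4.55 (adjusted p = 0.00768), T05C12.4 near *rrf-3*, at 4.12 (adjusted p = 0.0315), and F10G8.8 near *mut-16*, at 2.28 (adjusted p = 0.0476). Near *drh-2*, on the side away from *drh-1*, C01B10.4 rose as well, from 23 and 5 counts in wild type to 196 and 584 in the mutant (log2 fold change 4.65, adjusted p = 0.0340). The 7 called neighbours were picked as higher in these same libraries, so leaving out single libraries could hardly turn their sign. In those fits the log2 fold changes ranged from 5.31 to 7.002 for F26A3.5 and from 3.90 to 5.05 for K04F10.1. They ranged from 2.996 to 4.80 for T05C12.4, from 2.62 to 3.24 for *del-3* and from 2.16 to 2.86 for B0379.1. For F10G8.8 the range was 1.77 to 3.01, and for *lrp-1* 1.26 to 2.06.

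**Figure D5:**
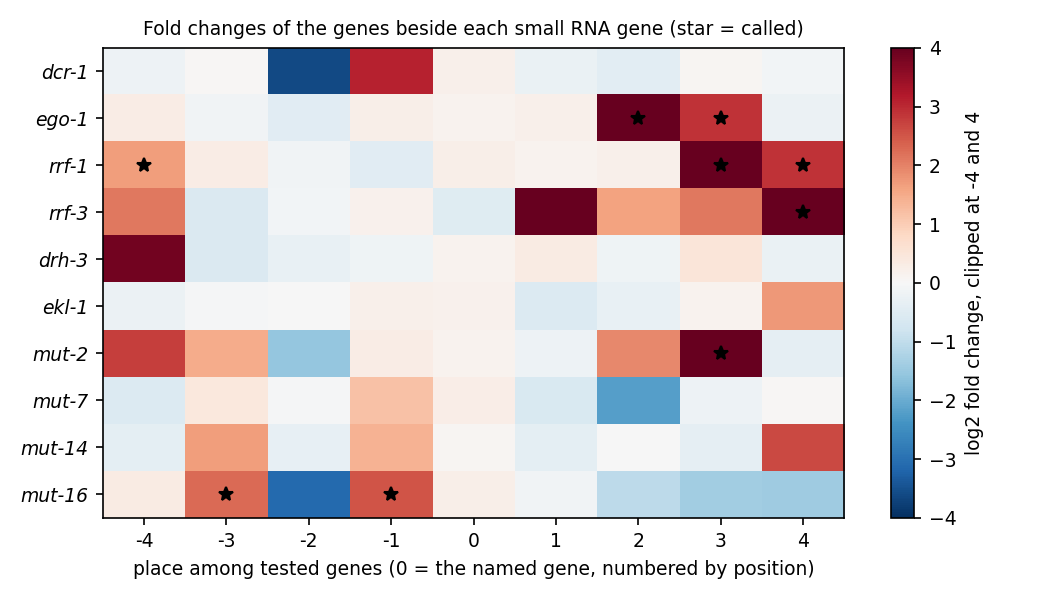
Log2 fold change of the mutant over wild type, clipped at -4 and 4, for each of the 10 genes (place 0) and the tested genes up to 4 places to either side, numbered by position along the chromosome; stars mark called genes. The column at place 0 is pale throughout, and 7 different called neighbours lie beside 5 of the 10 genes.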

How the data were processed

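RNA from dissected gonads was sequenced as 50-base reads with a stranded polyA kit, in 2 biological replicates per strain. Per the methods and the submitters' processing notes, the authors mapped reads with TopHat2 2.0.13 to WBcel235, and the notes also name HTSeq 0.6.1 and edgeR 3.10.5. The authors deposited raw counts per gene, whole numbers without normalization, which are the only values used. The authors also deposited a library-scaled signal (normalized counts), their own log2 fold changes and average log2 CPM, and their p-values, none of which was used. 

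Counts were TMM-normalized and fitted with edgeR 4.0.16 (glmQLFit, glmQLFTest; R 4.3.3), in a model of strain alone, for the 15261 genes that had any count. A call needs a p under 0.05 after Benjamini-Hochberg adjustment across these genes together with more than 2-fold change, as in the methods. Every adjusted p in the text comes from this fit unless another tool, another setting or a left-out library is named. Standard errors were derived from the log2 fold change and the F statistic, and 95% intervals use the t quantile of the fit. Counts per kilobase used the union of exons in Ensembl release 115 of WBcel235.

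Members and lists were chosen with earlier results of these data known. Companion genes named are the paralogs, the called genes, and the largest rise and fall in each list among genes whose higher strain mean reached 10 CPM; the genes on chromosome X and the neighbouring genes fall outside this rule. Companion genes not found by name were matched by gene ID. With 2 libraries per strain, an exact permutation test cannot give a two-sided p under 0.333, so p-values rest on the spread shared across genes. Totals of 28298609 to 32957429 counts put every member at 826 counts or more per library, so the spread between replicates, not depth, limits their precision. Alternatives were RLE normalization, DESeq2 1.42.0, filterByExpr, the legacy quasi-likelihood method, the classic exact test, a replicate block, other call rules, lengths of the longest transcript, and leaving out each library.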

Additional observations from a re-analysis of the deposited data

How the results depend on the processing

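Of the 10 genes, 0 were called in 10 alternative fits. In the alternatives that kept all 4 libraries, their adjusted p-values lay between 0.284 (*mut-7*, filterByExpr) and 0.953 (*mut-14*, classic exact test). The fits with a library left out called few or 0 genes of the whole table, so 0 calls there could hardly have come out otherwise. The sign of the fold change reversed in fits with a library left out for *rrf-3* (-0.81 to 0.013), *mut-14* (-0.092 to 0.28, below 0 at -0.092 and -0.024) and *smut-1* (-0.085 to 0.026). Without mutant replicate 1 the median of all genes also shifted, by 0.10. The order by level per length was the same with the longest transcript in place of all exons. The number of genes called depended strongly on the fit. The 676 higher and 223 lower genes became 1228 and 522 with DESeq2, 1086 and 510 with the classic exact test, and 1883 and 1889 at an unadjusted p under 0.05. With each library left out the counts ran from 0 to 101 higher and from 0 to 17 lower, where a lone library was taken to vary like the other strain's pair. The 0 calls arose without wild-type replicate 2 and without mutant replicate 1, in fits of edgeR with 1704 and 3769 genes at an unadjusted p under 0.05. The replicate number as a block gave 372 and 91 calls. Same-numbered libraries tended only weakly to deviate in opposite directions (correlation -0.135 over 9237 genes), and the numbers are not stated to mark a shared batch. The crossed pairing, added after seeing the data, gave 640 and 216 calls. Neither block called any of the 10 genes.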
